A study of Arabidopsis thaliana with 8 samples.

Results

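The 10 genes described here encode enzymes of phenylpropanoid and flavonoid synthesis in Arabidopsis thaliana: PAL1, PAL2, C4H, CHS, CHI, F3H, TT7, FLS1, UGT78D1 and UGT78D2. They were taken by gene identifier from lists of peaks of N6-methyladenosine (m6A), a methylated adenosine within messenger RNA. They had 16 of the 20521 peaks listed in wild type and 24 of the 20696 listed in the mutant, and were 10 of the 14304 genes with a peak in either list. The seedlings were 14 days old and of the ecotype Columbia-0, either wild type or homozygous for atalkbh10b-1, the only mutant line used, which carries a lesion in the m6A demethylase gene ALKBH10B. An m6A antibody was used to capture fragments of poly(A) RNA, and the labels name, as biological replicates, 2 libraries of captured RNA and 2 of input RNA in each genotype. Each value below is the authors' log2 enrichment of a peak in 1 replicate, and each mean is given with its SD over 2 replicates.

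The genes were chosen by their listed peaks, with the enrichment values of these known, so the presence of a peak is a description and was not tested. A gene has a peak in a list only where its RNA was present and the enrichment passed the authors' threshold. Fewer methylated molecules and less RNA of the gene therefore cannot be told apart where a peak is missing. Depth is unknown from these values. ALKBH10B itself had 2 peaks in each list, which measure methylation of its RNA and do not check its loss. Of 5 photosynthesis genes used to mark green seedling tissue, all 5 had a wild-type peak and 4 a mutant peak, the exception being the Rubisco activase gene RCA.

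Phenylalanine ammonia-lyase (PAL) turns phenylalanine into cinnamate, the entry to lignin, sinapate esters and flavonoids. Chalcone synthase then commits the flow to flavonoids, of which glycosylated flavonols screen seedlings from ultraviolet light and anthocyanins and tannins give colour to shoots and seed coats. The m6A mark is placed on messenger RNA by a methyltransferase complex, is bound by YTH-domain proteins, and is removed by demethylases such as ALKBH10B.

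Of the 10 genes, 8 had peaks in both lists, and CHS and TT7 had them in the mutant alone. None had a peak in wild type alone. Over all 14304 listed genes, 77.4% were in both lists, 9.54% in the mutant alone and 13.0% in wild type alone, so a count of 8 of 10 stood near the background. PAL1, PAL2, CHS, TT7 and UGT78D2 had more peaks in the mutant list than in the wild-type list, C4H had fewer, and the other 4 genes had equal numbers. Of all listed genes, 27.2% had more peaks in the mutant and 27.2% fewer. No overlapping peak in the other list was found for 10 of the 24 mutant peaks (41.7%) and 3 of the 16 wild-type peaks (18.8%), where 30.7% of all mutant peaks and 30.6% of all wild-type peaks had no such partner. The pair PAL1 and PAL2 held 6 of those 10 mutant peaks. The other 8 genes had 4 of 15 mutant peaks and 2 of 12 wild-type peaks without a partner, shares of 26.7% and 16.7%.

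**Figure D1:**
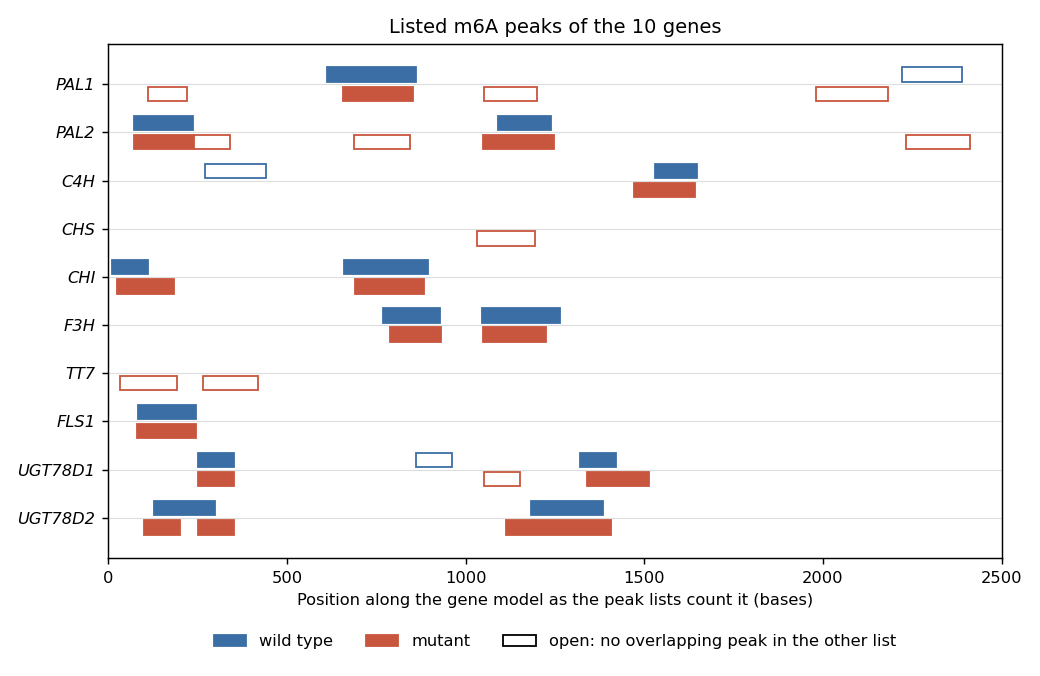
Positions of the listed peaks of each gene, in bases along the gene model as the lists count them, with wild type above (blue) and the mutant below (red); open boxes have no overlapping peak in the other list. PAL1 and PAL2 hold 6 of the 10 open mutant boxes, and CHS and TT7 have no wild-type box.

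Both ammonia-lyase genes had higher values in the mutant at every peak they shared between the lists. PAL2 (AT3G53260) had log2 enrichments of 4.38 and 3.04 in the mutant at bases 73 to 240, against 1.34 and 1.59 in wild type at bases 73 to 235. At its second shared peak, at bases 1050 to 1247 in the mutant and 1091 to 1239 in wild type, it had 2.61 and 3.18 against 1.46 and 0.59. PAL1 (AT2G37040) had 2.80 and 2.02 in the mutant at bases 656 to 853, against 1.52 and 1.01 in wild type at bases 613 to 860. At all 3 peaks the lower mutant replicate stood above the higher wild-type replicate. Such an order was found at 13.7% of the 13875 shared peaks of the whole lists, in the direction of the mutant.

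The PAL2 means were 3.71 ± 0.95 (SD, n = 2) in the mutant and 1.47 ± 0.18 in wild type at the first shared peak, a 4.73-fold difference. At the second they were 2.89 ± 0.41 and 1.03 ± 0.61, or 3.65-fold. The PAL1 means were 2.41 ± 0.55 and 1.26 ± 0.36, or 2.22-fold. None of these differences passed limma's moderated test over all shared peaks. The first PAL2 peak came nearest, with a log2 difference of 2.24 (SE 1.00) and a Benjamini-Hochberg adjusted p of 0.9996 (unadjusted p = 0.0852). Its difference lay above 88.9% of those at all shared peaks, and those of the second PAL2 peak and of PAL1 above 86.2% and 78.1%.

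Further peaks of PAL1 and PAL2 were in the mutant list with no partner. In PAL2 they lay at bases 241 to 340, with 1.65 and 2.58, at bases 687 to 844, with 2.16 and 1.06, and at bases 2231 to 2410, with 2.97 and 2.33. The peak at bases 241 to 340 directly followed the shared mutant peak at bases 73 to 240. It lay within 100 bases of the wild-type peak at bases 73 to 235. Whether the adjoining mutant peaks are separate sites was not tested. All 5 listed mutant peaks of PAL2 had both replicates above 1. Of genes in the mutant list, 1.99% had 5 or more peaks. That share is a description, since the genes were chosen with their peaks known. In PAL1 they lay at bases 111 to 220 (0.78 and 1.08), 1051 to 1200 (1.39 and 1.21) and 1981 to 2181 (1.68 and 0.79), lower than in PAL2. PAL1 also had a wild-type peak with no partner, at bases 2221 to 2389, with 1.62 and 0.56. Its start lay within 100 bases of the end of the last mutant peak of PAL1, and both counted as partners where that gap was allowed.

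PAL1 and PAL2 are closely related in sequence, and how the authors assigned reads that match both genes is not given in the sources used here. Counted along each gene's own model, 3 of the 4 mutant PAL1 peaks fell at positions that a mutant PAL2 peak also covered. In wild type 0 of 2 did. Whether reads shared between the pair contribute to their peaks was not tested.

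C4H (AT2G30490) encodes the cytochrome P450 that hydroxylates cinnamate, the step after PAL. Its shared peak had 1.64 and 2.18 in the mutant at bases 1471 to 1640 and 1.15 and 2.17 in wild type at bases 1531 to 1646. The replicates of the genotypes overlapped, with means of 1.91 ± 0.38 and 1.66 ± 0.72. A second peak, at bases 271 to 440, was listed in wild type alone, with 1.03 and 1.16, and C4H was the only one of the 10 genes with fewer peaks in the mutant.

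The genotype means of F3H were close to each other, whereas the replicates of CHI were mostly far apart. F3H (AT3G51240), whose enzyme hydroxylates flavanones to dihydroflavonols, had 1.56 and 1.75 in the mutant at bases 789 to 930 and 1.35 and 1.67 in wild type at bases 769 to 927. Its second peak had 1.96 and 1.05 in the mutant at bases 1048 to 1223 and 2.28 and 0.78 in wild type at bases 1046 to 1263. The genotype means of F3H thus differed by 0.14 at the first peak and by -0.03 at the second (log2, mutant minus wild type), less than the difference between the replicates of either genotype.

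CHI (AT3G55120), whose enzyme closes the ring of chalcone to a flavanone, had 2 shared peaks. Its replicates were far apart in both genotypes at the later peak and in the mutant alone at the earlier peak. At bases 661 to 893 it had -0.16 and 2.35 in wild type, and at bases 691 to 884 it had 0.03 and 2.91 in the mutant. In both genotypes the first replicate stood near 0 and the second above 2. At bases 11 to 110 CHI had 1.28 and 1.63 in wild type, and at bases 26 to 183 it had 1.89 and -0.28 in the mutant. The lower mutant mean there, 0.81 ± 1.54 against 1.46 ± 0.25, rested on 1 mutant replicate.

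CHS (AT5G13930), the chalcone synthase gene that opens the flavonoid branch, had a single peak, at bases 1031 to 1193 of the mutant list. Its values of 1.59 and 1.18 were close to each other (1.39 ± 0.29) and stood above only 23.4% of the mutant peaks. CHS and F3H each overlap another annotated gene in the TAIR10.1 table, so reads from a neighbour may be counted in their peaks, and whether they are was not tested.

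TT7 (AT5G07990) encodes flavonoid 3'-hydroxylase, the cytochrome P450 that turns kaempferol precursors into quercetin precursors. It had 2 peaks in the mutant list and none in wild type. At bases 33 to 191 its values were 9.97 and 11.13, whereas at bases 265 to 419 they were -0.50 and 4.21. The first peak ranked 19 of 20696 in the mutant list by mean enrichment (10.55 ± 0.81). No other peak of the 10 genes had a mean above 3.71. No read counts were examined, so the counting error of this level is unknown.

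FLS1 (AT5G08640), the main flavonol synthase gene of Arabidopsis, had a shared peak with nearly the same borders in both lists, from base 83 (wild type) or 82 (mutant) to base 244. Its values were 2.21 and 1.38 in the mutant and 1.74 and -0.24 in wild type. The replicates overlapped between genotypes, and the 2.07-fold difference of means rested on the second wild-type replicate: without it the log2 difference was 0.06 in place of 1.05. Of the 13 shared peaks of the 10 genes, 3 had both borders within 10 bases between the lists, those of FLS1, the first peak of PAL2 and a peak of UGT78D1, against 16.5% of all shared peaks.

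The glycosyltransferase genes UGT78D1 and UGT78D2 had no shared peak with a mutant mean at least 1.5-fold higher. Over all shared peaks 32.4% had such a mean. UGT78D1 (AT1G30530), whose enzyme attaches rhamnose to flavonols, had 1.05 and 1.5 in the mutant and 1.21 and 1.75 in wild type at bases 251 to 350, where both lists gave the same borders. At bases 1341 to 1512 it had 1.35 and 0.56 in the mutant, against 1.26 and 0.20 in wild type at bases 1321 to 1420. The genotype means differed by less than the replicates of either genotype at both. Each genotype had 1 more UGT78D1 peak with no partner, at bases 861 to 960 in wild type (1.25 and 1.26) and at bases 1051 to 1150 in the mutant (1.23 and 1.75).

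UGT78D2 (AT5G17050), whose enzyme attaches glucose to flavonols and anthocyanidins, was the only one of the 10 genes with a shared peak at which both mutant values lay below both wild-type values. In wild type it had 1.52 and 2.30 at bases 128 to 298, and in the mutant 1.19 and 0.78 at bases 101 to 200. That order was found at 15.0% of all shared peaks. The means were 1.91 ± 0.55 and 0.98 ± 0.29, and the difference of -0.92 (SE 0.93) did not pass limma's test (adjusted p = 0.9996). A second mutant peak, at bases 251 to 350 with 1.23 and 1.25, overlapped the same wild-type peak, so 1 wide wild-type peak stood beside 2 narrow mutant ones. At the last peak UGT78D2 had 3.96 and 0.86 in wild type at bases 1182 to 1384, and 3.74 and 0.27 in the mutant at bases 1113 to 1405, a spread within each genotype far wider than the difference between them. UGT78D2 lies in a cluster of related glycosyltransferase genes, and assignment of reads among them is not given.

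**Figure D2:**
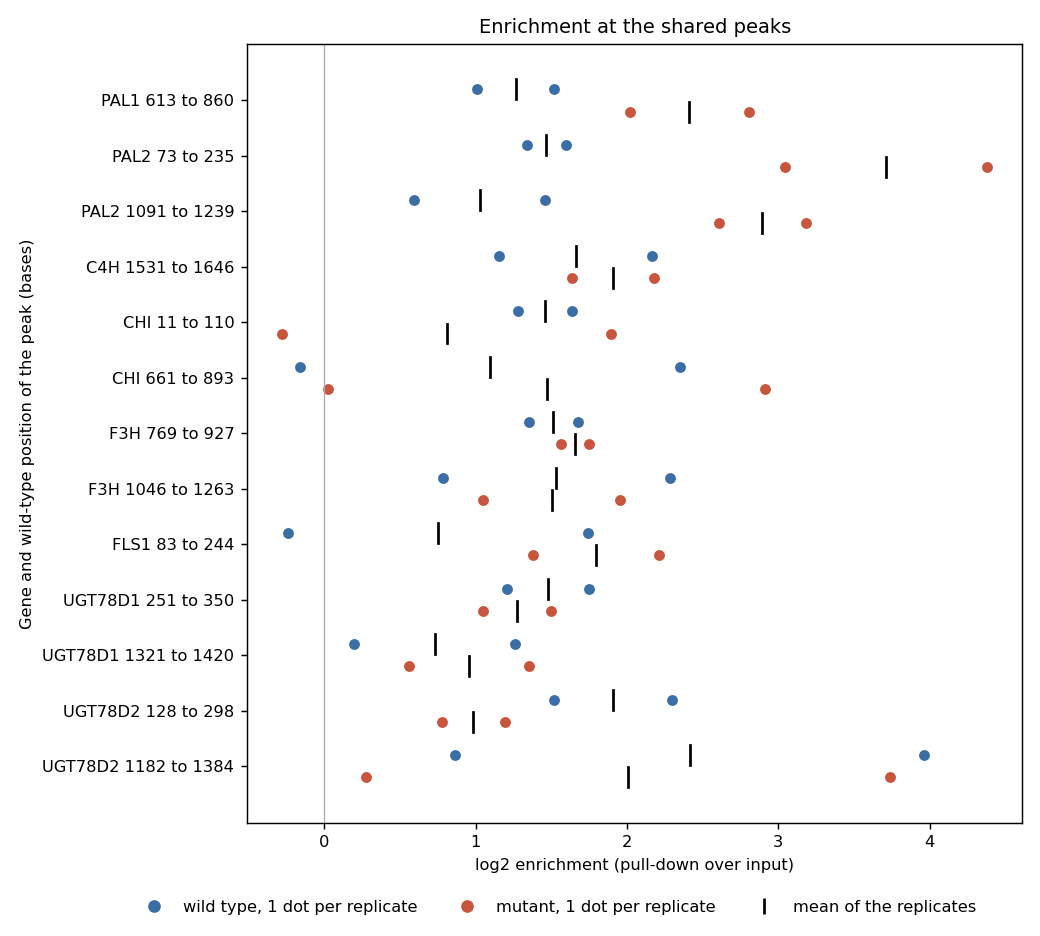
Log2 enrichment in each replicate (dots) and the mean (bar) at the 13 shared peaks, labelled by gene and wild-type position. The mutant dots of PAL1 and of both PAL2 peaks lie above all wild-type dots, those of UGT78D2 at 128 to 298 lie below, and the other 9 peaks overlap.

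Over the 13 shared peaks, 4 had mutant means at least 1.5-fold higher (those of PAL1, PAL2 and FLS1), 2 at least 1.5-fold lower (CHI and UGT78D2) and 7 lay between. Over all 13875 shared peaks, 32.4% were higher, 32.1% lower and 35.5% between by that measure. The shares of 30.8% and 15.4% for the 10 genes therefore show no excess of higher peaks over the background. The median log2 difference was 0.23 for the 13 peaks and -0.02 over all. The median size of the difference, whatever its sign, was 0.41 for the 13 peaks and 0.92 over all.

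Limma called 0 of the 13 peaks and 0 of all 13875 at an adjusted p under 0.05. At an unadjusted p under 0.05 it called 0 of the 13 and 3.54% of all. With 2 replicates in each genotype, an exact two-sided permutation test of a single peak could not have gone below p = 0.333.

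**Figure D3:**
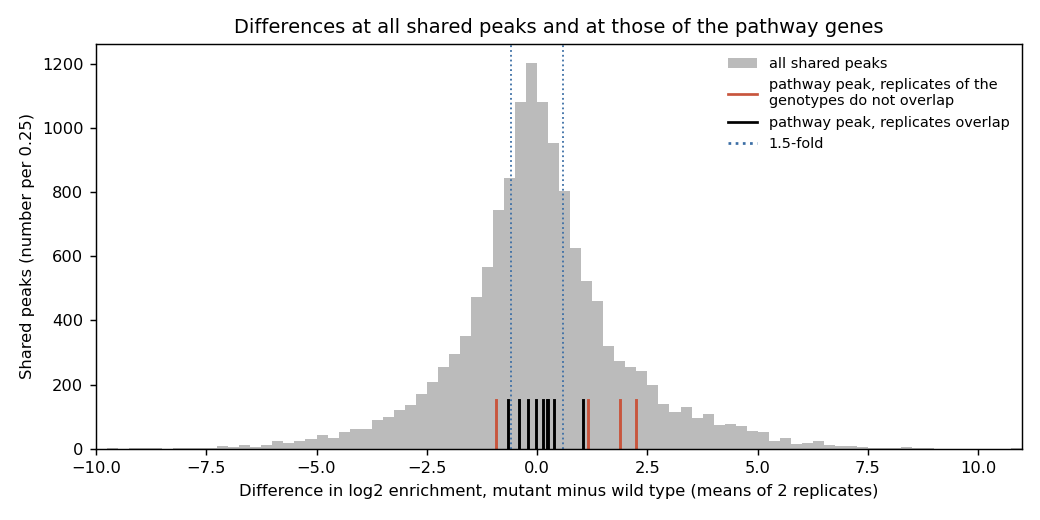
Differences in mean log2 enrichment, mutant minus wild type, at all 13875 shared peaks (grey histogram) and at the 13 peaks of the pathway genes (short lines); dotted lines mark 1.5-fold. The red lines, at which the replicates of the genotypes do not overlap, are those of PAL2 (2.24 and 1.87), PAL1 (1.15) and UGT78D2 (-0.92).

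As a group the 10 genes had low enrichment. Means of all 16 wild-type peaks, and of 20 of the 24 in the mutant, lay below the median of their list, which was 2.45 in both. Their own medians were 1.36 in wild type and 1.56 in the mutant. In wild type the means ran from 0.73 (UGT78D1) to 2.41 (UGT78D2). The 4 mutant peaks above the list median were the first of TT7 and 3 of PAL2.

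Their replicates were also closer than in most peaks. On the log2 scale the replicates of a wild-type peak differed by a median of 0.82 and those of a mutant peak by 0.79, against 1.46 and 1.79 over all peaks. Replicates at least 2-fold apart were found at 7 of 16 wild-type and 7 of 24 mutant peaks, where 62.6% and 68.0% of all peaks had them. Both replicates reached a log2 enrichment of 1 at 9 of 16 wild-type and 16 of 24 mutant peaks, shares of 56.2% and 66.7%, beside 68.2% and 64.6% of all peaks. The widest gap was at the second TT7 peak, with 4.71. The exceptions in both genotypes were CHI at its second peak and UGT78D2 at its last. At 9 of the 13 shared peaks the replicates differed in the same direction in both genotypes, against 50.1% of all shared peaks.

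**Figure D4:**
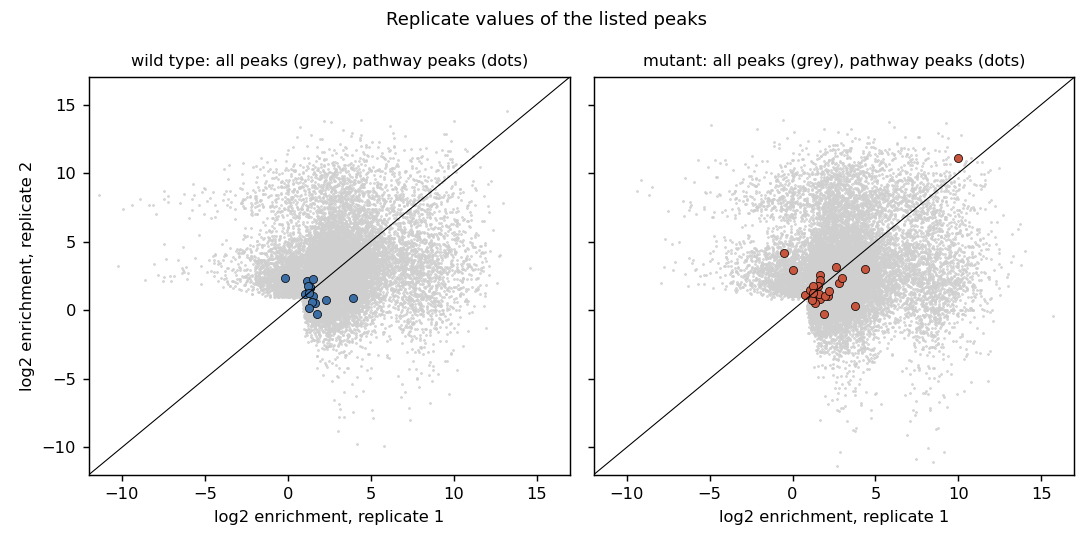
Log2 enrichment in replicate 1 (horizontal) and replicate 2 (vertical) of every listed peak (grey) and of the peaks of the 10 genes (coloured), in wild type (left) and the mutant (right); the line marks equal values. Most coloured dots lie at low values, with the first TT7 peak far above them at 9.97 and 11.13; 7 of 16 wild-type and 7 of 24 mutant dots are at least 2-fold off the line.

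Beside the 10 genes, 66 further genes of the pathway fell into 5 lists, and 33 of them had a peak. Of these, 26 had peaks in both genotypes, 1 in the mutant alone and 6 in wild type alone. Over all listed genes the shares were 77.4%, 9.54% and 13.0%. The 41 shared peaks of these genes had a median log2 difference of 0.00. They included 11 at least 1.5-fold higher in the mutant and 14 lower, beside 32.4% and 32.1% of all shared peaks. None of the 41 passed limma's test, and none had an unadjusted p under 0.05, beside 3.54% of all shared peaks.

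Of 18 genes of general phenylpropanoid and lignin synthesis, 15 had peaks in both lists and 4CL3, a coumarate ligase gene, in wild type alone, while PAL3 and CCR2 had none. Of their 27 shared peaks, 7 were at least 1.5-fold higher in the mutant, 8 lower and 12 between, beside 32.4%, 32.1% and 35.5% of all shared peaks. 4CL1 (AT1G51680), whose ligase activates coumarate, had 2.34 and 1.89 in the mutant at bases 1715 to 1936. In wild type it had 1.65 and 1.2 at bases 1700 to 1983. ATR2 (AT4G30210), a reductase that supplies electrons to cytochromes P450 such as C4H, went the other way, with 1.36 and -0.61 in the mutant at bases 48 to 202 and 2.24 and 1.90 in wild type at bases 45 to 199. A second ATR2 peak had 1.01 and 1.61 in the mutant (bases 766 to 900) and 1.99 and 2.12 in wild type (bases 809 to 960). CAD4 (AT3G19450), a cinnamyl alcohol dehydrogenase gene, had 0.89 and 1.76 against 2.04 and 1.80. At these 4 of the 27 peaks the replicates of the genotypes did not overlap, with the mutant above at 1 and below at 3, beside 13.7% and 15.0% of all shared peaks.

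The 3 wild-type peaks of 4CL3 (AT1G65060) had means from 0.67 to 3.29, and 2 of them had a replicate below 0. In the list of 5 sinapate ester genes, UGT84A2, a sinapate glucosyltransferase gene, and SCPL10 were listed in wild type alone. SCPL10 (AT2G23000) had 2.43 and 3.95 and UGT84A2 had -0.43 and 1.26, with the replicates on either side of 0. ALDH2C4 (AT3G24503), which oxidizes the aldehyde precursors of ferulate and sinapate, had 2.69 and 2.24 in the mutant and 3.34 and 2.80 in wild type. The list had 2 shared peaks, both with mutant means at least 1.5-fold lower, as at 32.1% of all shared peaks.

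Further flavonoid genes were mostly absent from both lists. The share of all annotated genes without a peak was not computed, so counts of absent genes have no background beside them. Of 13 further flavonol and anthocyanin enzymes, 10 had no peak, among them DFR and LDOX, which lead to anthocyanidins, and the isomerase-like gene CHIL. UGT89C1 (AT1G06000), which adds rhamnose at another position of flavonols, had 1.89 and 2.79 in the mutant at bases 93 to 210 and 1.17 and 0.75 in wild type at bases 91 to 190. RHM1 (AT1G78570) makes the UDP-rhamnose that UGT78D1 uses. It had 4.33 and 3.08 in the mutant and 5.26 and 10.13 in wild type at bases 2361 to 2460. Without the second wild-type replicate the RHM1 log2 difference was -1.56 in place of -3.99. Neither gene passed limma's test (adjusted p = 0.9996). Of the 4 shared peaks of these enzymes, the mutant stood above without overlap at 1 and below at 1, beside 13.7% and 15.0% of all shared peaks. Of 7 genes of proanthocyanidin synthesis in the seed coat, 6 had no peak, and the proton pump gene AHA10 had a wild-type peak with 0.00 and 9.04.

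Of 23 regulators, 6 were in both lists. No peak was listed for 14, which included the flavonol activators MYB11, MYB12 and MYB111 and the anthocyanin activators PAP1 and PAP2. MYBL2 (AT1G71030), a repressor of anthocyanin synthesis, was listed in wild type alone with 1.24 and 3.42, as was the light-signalling factor HY5 with -0.33 and 3.55. The WRKY factor gene TTG2 was listed in the mutant alone with 1.96 and 7.64. KFB20 (AT1G80440), an F-box protein gene whose product directs PAL to degradation, had 2.70 and 3.74 in the mutant at bases 20 to 260 and 1.81 and 1.65 in wild type at bases 76 to 261. Its log2 difference of 1.49 had an adjusted p of 0.9996 with limma. The regulators had 8 shared peaks. Of these, 3 were at least 1.5-fold higher in the mutant and 3 lower, beside 32.4% and 32.1% of all shared peaks. Only at the KFB20 peak did both mutant replicates stand above both wild-type replicates, an order found at 13.7% of all shared peaks.

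**Figure D5:**
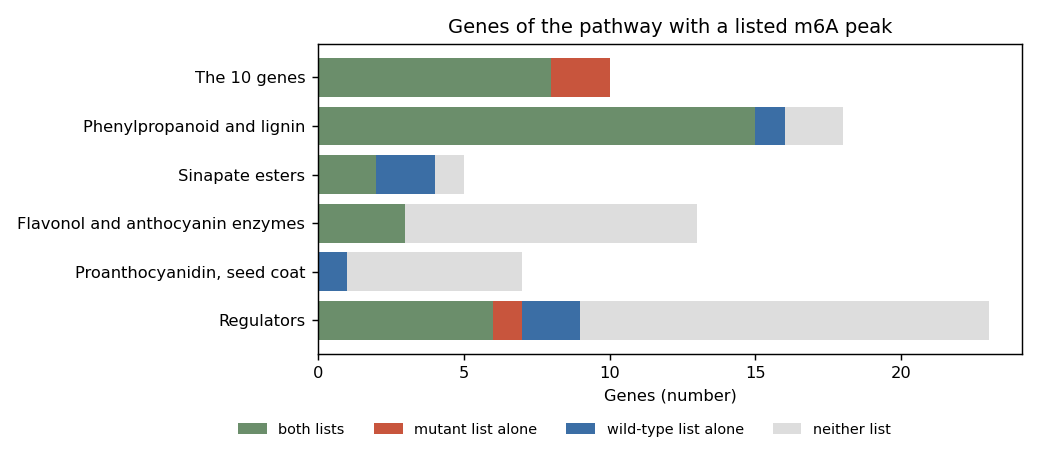
Number of genes in each list with a peak in both lists (green), in the mutant alone (red), in wild type alone (blue) or in neither (grey). General phenylpropanoid and lignin genes were listed for 16 of 18, against 3 of 13 further flavonol and anthocyanin enzymes and 1 of 7 seed coat genes.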

How the data were processed

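Per the file headers, the authors deposited 1 peak list per genotype, with a gene, a start, an end and a log2 enrichment for each of 3 replicates. The labels have samples for 2 of these, so the 2 columns of the third replicate matched no sample and were not used, and a listed peak can rest in part on it. TopHat2 2.0.14, edgeR and TAIR10 are named, with no role, per the submitters' processing notes. For the peak caller, its thresholds, the enrichment formula and the scaling, the sources used here give nothing. Scaling of the libraries, if done, would have removed a shift common to every peak.

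Peaks of the same gene that overlapped between the lists by 1 base or more were called shared. Values were compared at 13875 pairs, those whose peaks were mutually the largest overlap, with limma 3.58.1 in R 4.3.3, on the deposited log2 values, with no pseudocount, no replicate block and Benjamini-Hochberg adjustment over all pairs. The fit was also run on simulated data that had the same replicate spread at every peak. The replicate SDs of the real peaks varied widely, so that run does not check the fit on these data. The labels call the replicates biological and do not say whether they were grown apart. The p-values thus measure the spread between these libraries, part of which may be technical. All 10 genes and the 71 other list genes were found in the TAIR10.1 table by locus tag, CHS as TT4 and CHI as TT5. The members and lists were chosen with earlier results of these data known. The rule named all 10 genes and, of each other list, genes listed in 1 genotype. It also named up to 6 shared peaks of each other list, at least 1.5-fold apart without overlap of replicates. Genes with no peak, and PAL4, are examples chosen afterwards. The alternatives tried were a wider overlap, a stricter enrichment, a fold of 2, centring, gene means, a replicate block and leaving out replicates. Python 3.11.15, numpy 2.4.6, pandas 2.3.3 and matplotlib 3.10.9 were used.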

Additional observations from a re-analysis of the deposited data

How the results depend on the processing

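Over the alternatives, the log2 difference (mutant minus wild type) at the PAL1 shared peak ran from 0.76 to 1.54. At the PAL2 shared peaks it ran from 1.57 to 2.91 (first) and from 1.43 to 2.30 (second). Leaving out a replicate could not turn these signs, since both mutant replicates lay above both wild-type replicates. The stricter enrichment gave no value for the second PAL2 peak, where a wild-type replicate was 0.59. Averaged over all of a gene's peaks, PAL1 came to 0.29 in place of 1.15 and PAL2 to 1.35 in place of 2.06. Leaving out 1 replicate in turn, the sign of the difference turned at 8 of the 13 member peaks. The first CHI peak ran from -1.73 to 0.44, the second from -1.07 to 1.82, the last UGT78D2 peak from -2.14 to 1.32 and the mean of UGT78D2 from -1.63 to 0.30; the others were those of C4H, F3H and UGT78D1. Where both replicates had to reach a log2 enrichment of 1, CHI was listed in wild type alone (1 gene in place of 0), FLS1 joined CHS and TT7 in the mutant alone, 2 member peaks were higher and 1 lower, and other pathway genes had 5 listed in the mutant alone, 5 peaks higher and 9 lower. At 2-fold, 0 member peaks were lower, and 4 other pathway peaks were higher and 5 lower. Centring left 1 member peak lower. With borders up to 100 bases apart, a choice made after seeing the data, 1 wild-type member peak had no partner, in place of 3. Of the mutant member peaks, 7 then had no partner in place of 10, and 11 where the overlap had to be wider. Leaving out 1 replicate gave 5 to 7 member peaks higher and 2 to 3 lower, 6 in each case with the mutant above without overlap and 2 to 3 below, and 11 to 15 other pathway peaks higher and 8 to 16 lower; fewer values overlap less often by construction. Otherwise the cause was not tested. Shares over all genes and all shared peaks were not computed under these alternatives, so these counts have no background beside them. Same-numbered replicates did not deviate together (r = 0.01 over 13875 pairs), so the numbers were not taken to pair libraries; with the replicate block limma again called 0 member peaks (smallest adjusted p 0.9997). Over the alternatives that p ran from 0.763 to 1.00, which says nothing of stability, since no shared pair passed in any fit over pairs; with a replicate left out, the lone library is assumed to vary like those of the other genotype.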
